A study of Mus musculus with 4 samples.

Results

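Stra8, Gm4969 (Meiosin), Gm1564 (Meioc) and Ythdc2 encode regulators that bring male germ cells into meiosis, and they were followed here as 4 of the 14984 genes in a table of ribosome footprints from mouse testis. The 4 rows were taken by name. Ribosome profiling sequences the stretches of mRNA that ribosomes protect from nuclease. The tested libraries were 2 samples of whole testes labelled cKO, from mice carrying Eif5fl/fl and Stra8-Cre, in which the gene for eukaryotic translation initiation factor 5 is deleted in germ cells (Eif5 cKO). They were set against 2 samples labelled control, whose alleles the labels do not spell out. All were at day 10, when the first germ cells of the mouse testis enter meiosis. Cre in these mice was driven by the promoter of Stra8, itself one of the 4 genes, and the testes also held somatic cells that keep Eif5.

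Retinoic acid switches on Stra8 and Meiosin in germ cells that are leaving the mitotic cycle. The STRA8 and MEIOSIN proteins bind each other and the promoters of meiotic genes, and raise the transcription of these genes. MEIOC and YTHDC2 act on RNA. YTHDC2 is a helicase with a YTH domain that binds N6-methyladenosine (m6A), MEIOC is its partner, and with RBM46 they lower mitotic transcripts such as that of cyclin A2, so that the cell stays in meiotic prophase. Male mice lacking any of the 4 genes are known to be infertile, with germ cells that stop around meiotic entry.

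Promoter windows of Stra8, Gm4969 and Gm1564 are shown because retinoic acid receptors, STRA8 itself and complexes with E2F6 and MAX are known to act at promoters of meiotic genes. Each window runs from 250 bases before a RefSeq start site to 50 bases after it, 5′ to 3′ in the direction of the gene, from RefSeq on GRCm38.p6. Capitals mark matches, on either strand, to any motif searched. The Stra8 window is chr6:34920698-34920997 (plus strand), the Gm4969 window, listed under the RefSeq symbol Bhmg1, is chr7:19118295-19118594 (minus strand), and the Gm1564 window, listed as Meioc, is chr11:102665335-102665634 (plus strand). The start sites of these windows lie 785, 187 and 234 bases inside the outermost ends of the RefSeq loci of Stra8, Gm4969 and Gm1564 given below, so bases before a start site here can still be within the annotated locus.
Stra8: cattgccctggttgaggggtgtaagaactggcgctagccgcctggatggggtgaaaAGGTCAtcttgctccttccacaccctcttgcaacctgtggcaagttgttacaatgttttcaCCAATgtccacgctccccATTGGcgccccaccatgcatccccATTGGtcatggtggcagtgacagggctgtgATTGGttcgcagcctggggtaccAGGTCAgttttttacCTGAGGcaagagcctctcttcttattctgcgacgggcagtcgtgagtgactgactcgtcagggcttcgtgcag
Gm4969: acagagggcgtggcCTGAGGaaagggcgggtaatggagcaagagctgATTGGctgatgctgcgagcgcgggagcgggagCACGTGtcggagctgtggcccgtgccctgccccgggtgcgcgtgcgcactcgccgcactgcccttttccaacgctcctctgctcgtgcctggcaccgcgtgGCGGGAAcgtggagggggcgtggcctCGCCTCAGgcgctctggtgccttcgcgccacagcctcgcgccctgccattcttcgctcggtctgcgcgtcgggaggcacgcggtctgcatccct
Gm1564: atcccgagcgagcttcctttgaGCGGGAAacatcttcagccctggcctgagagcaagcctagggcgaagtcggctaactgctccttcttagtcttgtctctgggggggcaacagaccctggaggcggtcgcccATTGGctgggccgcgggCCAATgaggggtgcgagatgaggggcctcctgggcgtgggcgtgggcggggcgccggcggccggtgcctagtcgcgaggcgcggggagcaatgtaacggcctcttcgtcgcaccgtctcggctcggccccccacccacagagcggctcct

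The Stra8 window held AGGTCA, the half-site of retinoic acid receptors, at 194 to 189 and at 38 to 33 bases before the start site, while the windows of Gm4969 and Gm1564 held none. Of 32851 RefSeq promoter windows of this length, 16.3% held AGGTCA on either strand. Neither AGGTCANNAGGTCA nor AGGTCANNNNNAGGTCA, the half-site repeated with a gap, was in any of the 3 windows, and each was in 0.00913% of all windows. The E2F-type element GCGGGAA was in the Gm4969 window, at 70 to 64 bases before the start site, and in the Gm1564 window, at 228 to 222 bases before it. It was in 4.60% of all windows. The MAX-type E-box CACGTG was in the Gm4969 window, 171 to 166 bases before the start site, and in 7.15% of all windows. CNCCTCAG, described in mouse as a STRA8 binding motif, was in the Gm4969 window at 44 to 37 bases before the start site and in 7.94% of all windows. Its core CCTCAG, which overlaps that match, occurred a second time in the Gm4969 window and once in the Stra8 window, and in 26.8% of all windows. CCAAT boxes were in all 3 windows and in 37.4% of all windows. These matches are letters only, and no binding was measured.

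Values below are those of the deposited table, in which the reads of a gene are divided by 1 size factor per library. The libraries held 2296938 and 2782527 reads in Eif5 cKO replicates 1 and 2, and 2934609 and 2225964 in control replicates 1 and 2. Whether the 2 libraries of a group stem from different mice is not given in the labels, and p-values therefore speak to the spread among these libraries, part of which could be technical. Eif5 itself had values of 173 and 266 in Eif5 cKO and 365 and 304 in control, which did not overlap, and its log2 fold change of -0.63 (SE 0.25) did not pass the test (limma adjusted p = 0.319). Over the 12095 genes tested, Eif5 cKO replicate 2 had a correlation of log2 values of 0.920 with Eif5 cKO replicate 1, of 0.930 with control replicate 1 and of 0.923 with control replicate 2, and the 2 controls had one of 0.944. Correlations of Eif5 cKO replicate 1 with the controls are not given here. A gene was called at a Benjamini-Hochberg adjusted p under 0.05 in limma, fitted over 12095 genes on log2(value + 1), a scale that understates changes of low values.

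All 4 genes were called lower in Eif5 cKO testes, against 0.604% of all genes tested. Footprints of Meiosin and Meioc were 13.8-fold and 11.6-fold below the control mean, while Stra8 and Ythdc2 were 2.93-fold and 2.38-fold lower. Both Eif5 cKO values lay below both control values for each of the 4 genes. Of all genes tested 20.9% did so. In whole tissue, fewer cells of a type and less RNA per cell cannot be told apart, and since RNA libraries were not analysed here, a change in mRNA and a change in its translation cannot be told apart either.

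Stra8, the retinoic acid-induced partner of MEIOSIN, lies on chromosome 6 at 34920163 to 34939344 (GRCm38). Its values were 276 and 212 in Eif5 cKO replicates 1 and 2, and 841 and 587 in control replicates 1 and 2. The groups were well apart, and the controls differed from each other more than the Eif5 cKO samples did. The means were 244 ± 45.5 in Eif5 cKO and 714 ± 180 in control (SD, n = 2 each). The fitted log2 fold change of Stra8 was -1.53 (SE 0.24; 95% interval from -2.02 up to -1.05; limma adjusted p = 1.20e-04), and 183 of the tested genes had a lower one.

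Gm4969 encodes MEIOSIN, which partners STRA8 on DNA, and lies on chromosome 7 at 19098271 to 19118531. Its values were 2.27 and 6.28 in Eif5 cKO replicates 1 and 2, and 77.5 and 40.2 in control replicates 1 and 2. These rest on 2 and 7 reads in the Eif5 cKO libraries and 95 and 35 reads in the control libraries, so the knockout level is close to the limit of detection, while the controls were readily counted. The means were 4.28 ± 2.83 in Eif5 cKO and 58.9 ± 26.4 in control (SD, n = 2 each). For Gm4969 the fitted log2 fold change was -3.54 (SE 0.70; 95% interval from -4.97 up to -2.12; limma adjusted p = 0.00423), and 6 tested genes had a lower one. Only the control reads of Gm4969 were high enough for the filter on low reads, so its entry to the test depended on the control group. A gene let in this way could only come out lower, and the rank does not allow for that. With no filter on low values Gm4969 was called as well (-3.54; limma adjusted p = 0.00166). Taken over the summed reads of each group, Eif5 cKO held 7.28% of the control level, with an exact 95% interval of 3.25% to 14.2% that covers counting error only. The 3′ end of the locus overlaps Six5, a homeobox gene, in the RefSeq annotation, and whether the counting used strand is not given in the sources used here. Six5 had 19.3 and 25.1 in Eif5 cKO and 18.8 and 23.0 in control, which overlapped.

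Gm1564 encodes MEIOC, the partner of YTHDC2, and lies on chromosome 11 at 102665351 to 102682240. Its values were 5.68 and 20.6 in Eif5 cKO replicates 1 and 2, and 174 and 131 in control replicates 1 and 2. The 2 knockout samples, with 5 and 23 reads, differed widely from each other, and both lay far below the controls, which had 213 and 114 reads. The means were 13.2 ± 10.6 in Eif5 cKO and 152 ± 30.4 in control (SD, n = 2 each). For Gm1564 the fitted log2 fold change was -3.66 (SE 0.47; 95% interval from -4.61 up to -2.71; limma adjusted p = 3.19e-06), and 3 tested genes had a lower one. On summed reads Eif5 cKO held 9.0% of the control level, with an exact 95% counting interval of 5.89% to 13.3%.

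Ythdc2, the m6A-binding helicase, lies on chromosome 18. Its values were 55.7 and 79.9 in Eif5 cKO replicates 1 and 2, and 146 and 177 in control replicates 1 and 2. The knockout samples were lower without overlap. The 95% intervals of Ythdc2 and Stra8 overlapped, and the difference between their folds was not tested. The means were 67.8 ± 17.1 in Eif5 cKO and 161 ± 21.7 in control (SD, n = 2 each). For Ythdc2 the fitted log2 fold change was -1.26 (SE 0.31; 95% interval from -1.88 up to -0.63; limma adjusted p = 0.0338), and 328 tested genes had a lower one.

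**Figure D1:**
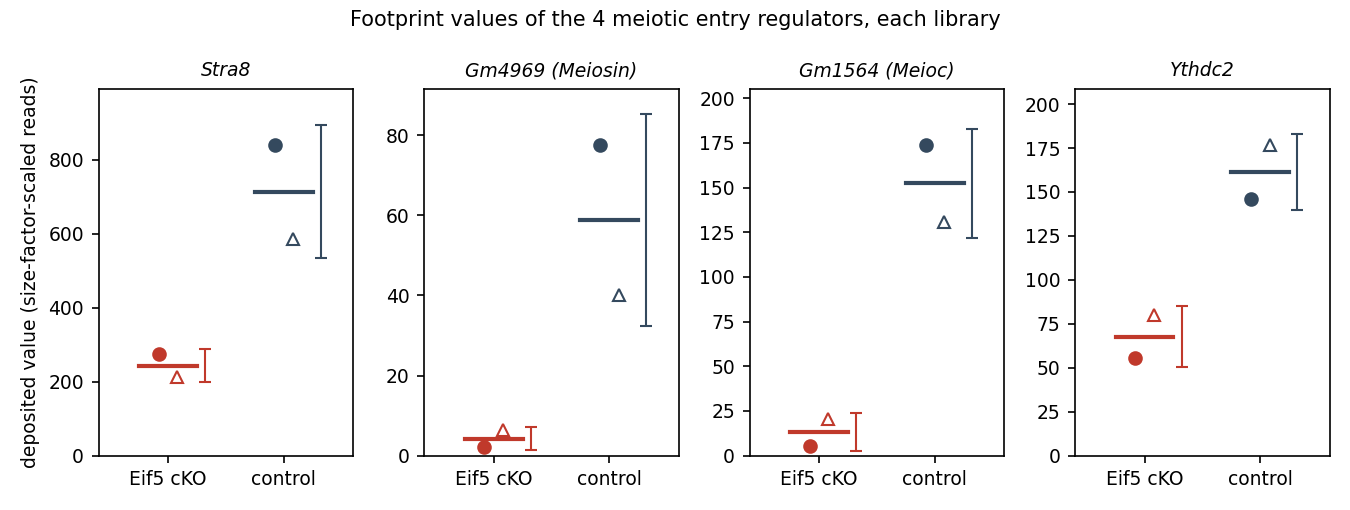
Deposited values (y axis, size-factor-scaled reads, a scale of its own in each panel) of the 4 genes in each library, with circles for replicate 1 and triangles for replicate 2, bars for group means and brackets for ± 1 SD (n = 2). In all 4 panels both Eif5 cKO points lie below both control points, and for Gm4969 and Gm1564 the knockout points lie near 0, at 2.27 to 20.6.

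The calls depended on single libraries more than the fold changes did. Without control replicate 1, 0 of the 4 genes passed in limma and all 4 had an unadjusted p under 0.05, and the log2 fold changes were still -1.28 for Stra8, -3.08 for Gm4969, -3.46 for Gm1564 and -1.39 for Ythdc2 (limma adjusted p = 0.103, 0.714, 0.0716 and 0.387). Without control replicate 2, Stra8 and Gm1564 passed, and Gm4969 and Ythdc2 did not (adjusted p = 0.192 and 0.528). Without Eif5 cKO replicate 1 all but Ythdc2 passed (its adjusted p was 0.125), and without Eif5 cKO replicate 2 all 4 passed. On the recovered reads edgeR called all 4 genes, against 0.661% of genes called lower, and DESeq2 called 3, against 0.48%, with Ythdc2 short of the threshold (adjusted p = 0.0983). With 2 samples a group, exact permutation reaches a two-sided p of 0.33 at best, and every limma call therefore drew on the variance that limma pools over genes. The edgeR and DESeq2 calls drew on estimates of spread that each of these tools shares over genes.

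**Figure D2:**
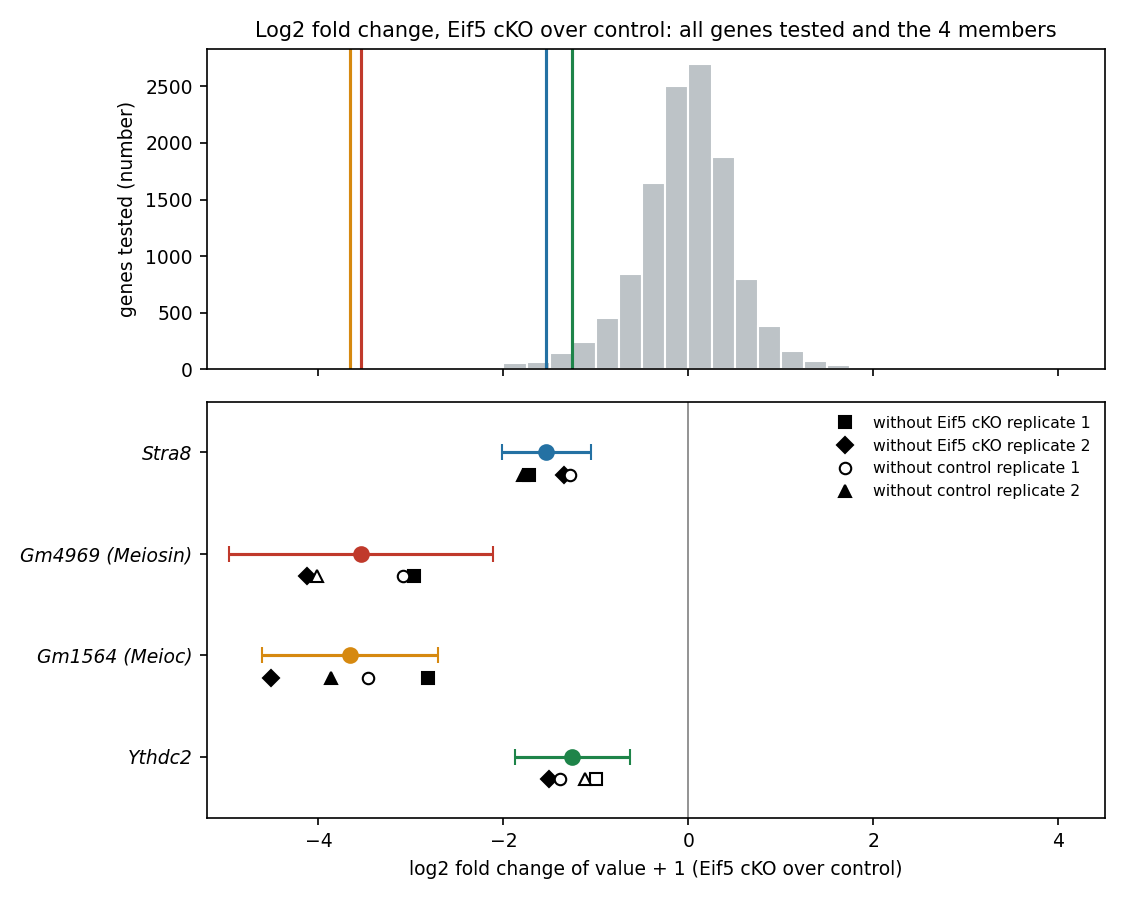
The upper panel counts the 12095 genes tested by log2 fold change (Eif5 cKO over control), with a vertical line for each of the 4 genes in the colours of the lower panel. The lower panel gives each estimate with its 95% interval and, in black beneath, the estimates with 1 library left out (filled where the adjusted p was under 0.05). Gm1564 at -3.66 and Gm4969 at -3.54 lie in the far lower tail, and all estimates are below 0.

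The 4 log2 fold changes differed in size, but no contrast between genes was fitted. The 95% intervals of Gm4969 and of Gm1564 overlapped neither that of Stra8 nor that of Ythdc2, while those of Gm4969 and Gm1564 overlapped each other, as did those of Stra8 and Ythdc2. The gap to Stra8 was narrow for Gm4969, whose interval ended at -2.12 where that of Stra8 began at -2.02. Ratios within a library show the same split without any scaling between libraries. Gm4969 was 0.823% and 2.97% of the Stra8 value in Eif5 cKO replicates 1 and 2, and 9.22% and 6.85% in control replicates 1 and 2. MEIOSIN footprints were thus scarcer in the knockout even when counted against those of its own partner, by 4.24-fold between the group means. Gm1564 was 2.06% and 9.75% of the Stra8 value in Eif5 cKO, and 20.7% and 22.3% in control. It was 10.2% and 25.8% of the value of Ythdc2, its partner, in Eif5 cKO, and 119% and 74.0% in control, a 5.35-fold difference of means. Stra8 against Ythdc2 overlapped, at 496% and 265% in Eif5 cKO and 575% and 332% in control. The exact two-sided permutation test over samples gave p = 0.33 for each of these ratios that did not overlap, the smallest it can give, and p = 0.667 for Stra8 against Ythdc2. Ratios were compared only between libraries, since lengths of the coding sequences were not used here and levels of different genes cannot be ranked without them.

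The 4 genes were also set against germ cell markers. Undifferentiated spermatogonia are the stem and progenitor cells before the retinoic acid response. Their markers summed to 996 and 998 in Eif5 cKO and to 1134 and 1028 in control, which did not overlap. Without Foxo1, the most abundant, the sums were 744 and 755 in Eif5 cKO and 902 and 831 in control, which did not overlap either. Of the 10 tested, 0 passed in limma, edgeR or DESeq2 and 1 had an unadjusted p under 0.05 in limma, and their median log2 fold change was -0.09. Among all genes tested, 0.604% were called lower in limma and 10.6% had an unadjusted p under 0.05. The 2 with the highest level were Foxo1, a transcription factor of stem cells (247 ± 7.04 in Eif5 cKO and 215 ± 24.9 in control), and Taf4b, a TFIID subunit (129 ± 18.6 in Eif5 cKO and 205 ± 9.12 in control; SD, n = 2 each), and neither passed. Against the full sum of these markers, each of the 4 genes was lower in both Eif5 cKO libraries than in both control libraries. Stra8 was at 27.7% and 21.2% of it in Eif5 cKO and at 74.1% and 57.0% in control, and Gm4969 at 0.228% and 0.629% in Eif5 cKO and at 6.83% and 3.91% in control. The markers listed for germ cells as a whole had lower sums themselves, at 2454 and 2609 in Eif5 cKO and 5384 and 4894 in control. All 9 tested were negative, but unevenly, from -1.99 for Tex101 up to -0.34 (median log2 fold change -0.81). Ratios to their sum thus depend on the markers chosen. Of the 9, 4 were called lower and 7 had an unadjusted p under 0.05, beside 0.604% and 10.6% of all genes tested. Those called included Tex101, a germ cell surface protein (298 ± 75.3 in Eif5 cKO and 1173 ± 147 in control; SD, n = 2 each), and Dazl, described below. Against that sum Ythdc2 overlapped between the groups, at 2.27% and 3.06% in Eif5 cKO and 2.71% and 3.61% in control. Stra8 did not overlap, at 11.2% and 8.12% in Eif5 cKO and 15.6% and 12.0% in control, and neither did Gm1564, at 0.231% and 0.791% in Eif5 cKO and 3.23% and 2.67% in control.

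Against the summed early meiotic prophase genes, Stra8 (14.8% and 9.54% in Eif5 cKO, 15.1% and 11.0% in control) and Ythdc2 (2.99% and 3.6% in Eif5 cKO, 2.63% and 3.30% in control) overlapped between the groups. Gm4969 was at 0.122% and 0.283% of that sum in Eif5 cKO and at 1.40% and 0.750% in control. Gm1564 was at 0.305% and 0.930% in Eif5 cKO and at 3.13% and 2.44% in control. Relative to this sum, Meiosin and Meioc were thus 5.30-fold and 4.52-fold lower in Eif5 cKO by the group means. Exact permutation again gave p = 0.33 for these ratios, its smallest value.

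**Figure D3:**
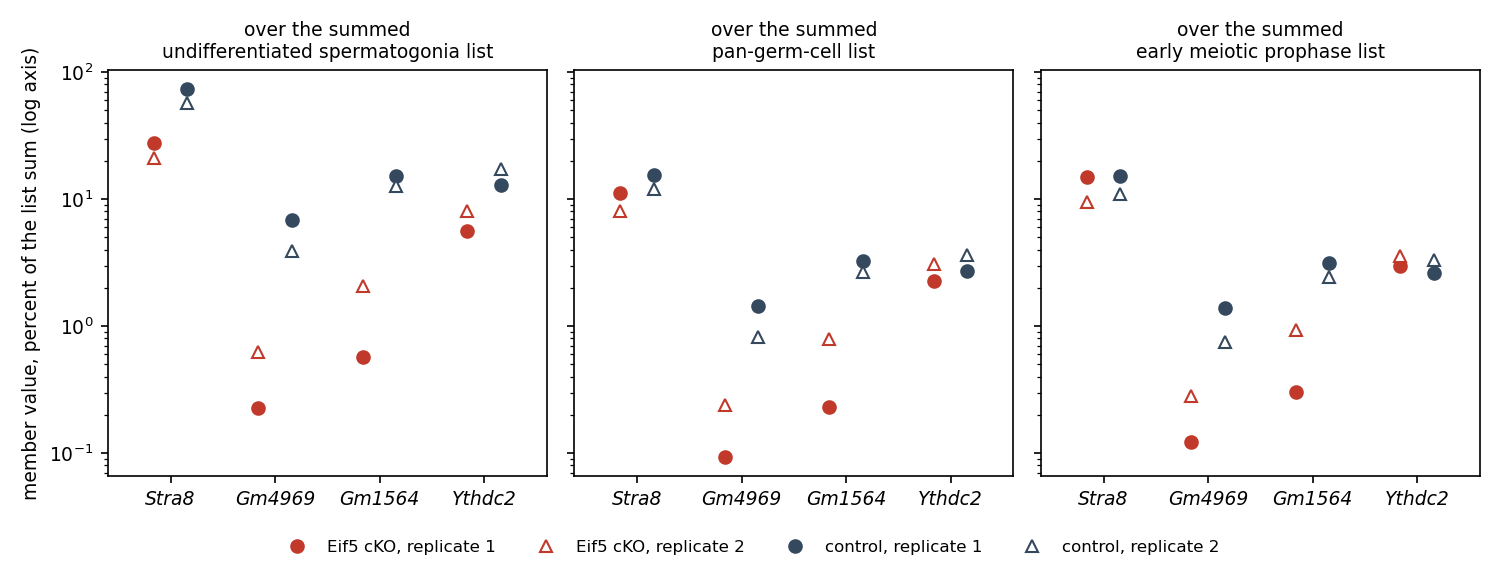
Value of each gene as a percent of the summed value of a marker list in the same library (y axis, log scale), with Eif5 cKO in red left of control in dark blue. Points are single libraries, and levels of different genes on the x axis are not comparable because coding length was not taken into account. Gm4969 and Gm1564 separate in all 3 panels, Stra8 in all but the early meiotic one, and Ythdc2 separates against spermatogonial markers and overlaps against the other lists.

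Genes of early meiotic prophase, many of which STRA8 and MEIOSIN are known to raise, were lower as well. Of 29 tested, 13 were called lower and 0 higher, and 25 had an unadjusted p under 0.05. Over all genes tested, 0.604% were called lower and 10.6% had an unadjusted p under 0.05. The median log2 fold change of the list was -1.47, beside 0.003 over all genes tested. Among those called, Sycp1, which links paired chromosome axes, had 97.7 and 153 in Eif5 cKO and 464 and 380 in control (log2 fold change -1.77, SE 0.26). The meiotic cohesin genes Stag3 (162 and 148 in Eif5 cKO, 530 and 402 in control) and Smc1b (124 and 102 in Eif5 cKO, 491 and 284 in control) had log2 fold changes of -1.57 and -1.72. M1ap, needed for meiotic recombination, was at -1.95, Tex15 at -1.43 and the X-linked Tex11 at -1.26. Sycp3, an axial element protein, passed as well (-1.26). Rec8, the meiotic cohesin kleisin, had 130 and 104 in Eif5 cKO and 223 and 184 in control and did not pass (-0.80, SE 0.27; limma adjusted p = 0.211). Prdm9, Spo11, Msh4 and Meiob had 0 reads in at least 1 library. Without control replicate 1, 0 of them passed in limma and 18 had an unadjusted p under 0.05, and without control replicate 2, 3 passed. The list was chosen with lower values of meiotic genes in these data already known, and its count is no independent support.

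Of the genes placed upstream of meiotic entry, Dazl passed the test. Of 13 genes of retinoic acid supply and reception, 0 passed in limma, edgeR or DESeq2, and the median was 0.08. In limma 3 had an unadjusted p under 0.05. Over all genes tested, 0.604% were called lower in limma and 10.6% had an unadjusted p under 0.05. Aldh1a1, a retinaldehyde dehydrogenase of Sertoli cells and the most abundant of them, had 4576 and 5592 in Eif5 cKO and 3825 and 3734 in control. Crabp1, a retinoic acid-binding protein (-0.80, SE 0.27), and the receptor gene Rarg (-1.73, SE 0.79) had the smallest p, and their adjusted p was 0.184 and 0.416. Rarg rests on 2 and 22 reads in Eif5 cKO and 41 and 18 in control. Aldh1a3, also with an unadjusted p under 0.05, was higher, with 52.3 and 25.1 in Eif5 cKO and 9.79 and 21.8 in control (1.25, SE 0.59; limma adjusted p = 0.438). Of 9 tested germ cell regulators of entry, 8 were negative, beside 6014 of all 12095 genes tested. Their median was -0.48, 4 had an unadjusted p under 0.05, and 1 was called lower. That gene was Dazl, an RNA-binding protein that makes germ cells competent for meiosis, with 414 and 734 in Eif5 cKO and 1340 and 1107 in control (-1.14, SE 0.24; limma adjusted p = 0.0100). The call was lost without either control library and without Eif5 cKO replicate 1. Dmrtb1, which acts in late spermatogonia, had 27.3 and 11.7 in Eif5 cKO and 64.5 and 62.0 in control but missed the threshold (-1.76, SE 0.49; limma adjusted p = 0.0823). Dmrt1, a repressor of Stra8 in spermatogonia, had 951 and 752 in Eif5 cKO and 1029 and 917 in control, which overlapped.

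The complex PRC1.6, which silences meiotic genes through E2F6 and MGA with MAX, had 0 of 10 genes called in limma, edgeR or DESeq2, 0 with an unadjusted p under 0.05 in limma, and a median of 0.002. Over all genes tested, limma called 0.604% lower, and 10.6% had an unadjusted p under 0.05. E2f6 had 102 and 135 in Eif5 cKO and 70.2 and 89.5 in control (0.56, SE 0.31), and L3mbtl2 had 85.2 and 55.6 in Eif5 cKO and 104 and 89.5 in control (-0.48, SE 0.33). Neither passed.

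Partners of MEIOC and YTHDC2, with the m6A writers and the other YTH readers, had 0 of 9 genes called in limma, edgeR or DESeq2 and a median of -0.16. With an unadjusted p under 0.05 in limma there were 2, beside 10.6% of all genes tested. Since limma called 0.604% of all genes lower, 0 called among so few genes does not show that the list was unchanged. Rbm46, the third member of the complex, had 119 and 171 in Eif5 cKO and 309 and 187 in control. Its log2 fold change was -0.75 (SE 0.28), and it did not pass (limma adjusted p = 0.269). Xrn1, a 5′ to 3′ exonuclease that binds YTHDC2, had 149 and 158 in Eif5 cKO and 141 and 125 in control (0.20, SE 0.27). Of the writers, Mettl14 had the smallest p, with 80.7 and 84.3 in Eif5 cKO and 147 and 114 in control (-0.64, SE 0.30). Ythdc1, Ythdf1, Ythdf2 and Ythdf3, the remaining YTH readers, had log2 fold changes of -0.16, 0.19, -0.15 and 0.01. Within this family Ythdc2 was the single gene called in limma, and DESeq2 did not call it (adjusted p = 0.0983). The difference between Ythdc2 and these readers was not tested.

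Of 9 tested genes of mitotic cell division, 1 fell, 5 had an unadjusted p under 0.05 in limma (10.6% of all genes tested did), 8 were negative, and the median was -0.65. Bub1, a spindle checkpoint kinase, had 106 and 180 in Eif5 cKO and 339 and 261 in control (-1.10, SE 0.27; limma adjusted p = 0.0338), a call lost in DESeq2 and with either control replicate or Eif5 cKO replicate 1 left out. Top2a, a topoisomerase of dividing cells, had 478 and 552 in Eif5 cKO and 1082 and 736 in control and did not pass (-0.80, SE 0.23; adjusted p = 0.109). Ccna2, the cyclin A2 transcript that MEIOC and YTHDC2 are known to lower, had 278 and 264 in Eif5 cKO and 391 and 364 in control (-0.48, SE 0.23; limma adjusted p = 0.468). Both Eif5 cKO values of Ccna2 lay below both control values, as they did for 20.9% of all genes tested.

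**Figure D4:**
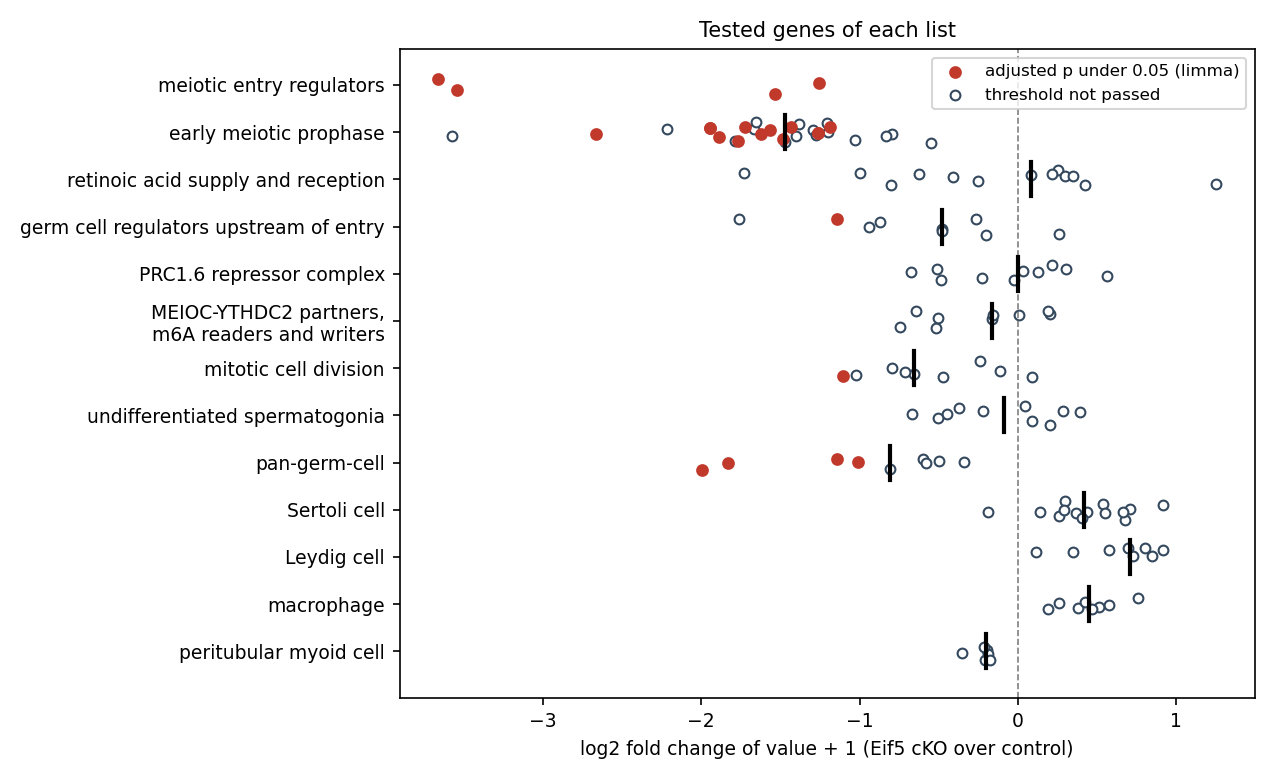
Log2 fold change (x axis, Eif5 cKO over control) of every tested gene of each list, filled in red where limma's adjusted p was under 0.05, with a black bar at the median of each list other than the 4 genes and a dashed line at the median of all genes. The 4 meiotic entry regulators (top) and the early meiotic prophase genes (median -1.47) lie to the left, and the lists of retinoic acid and PRC1.6 genes centre near 0.

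Markers of Sertoli cells, Leydig cells and macrophages mostly had positive log2 fold changes, and none of these genes passed in limma. Over all 12095 genes tested, 6081 were positive, 73 were called lower and 9 higher in limma, and 10.6% had an unadjusted p under 0.05. The 14 tested Sertoli cell genes had a median of 0.42, with 13 positive, 0 called in limma or edgeR, 1 called in DESeq2 and 6 with an unadjusted p under 0.05 in limma. Their sum was 101548 and 72208 in Eif5 cKO and 53067 and 73911 in control, which overlapped, and Clu, a secreted chaperone, held most of it (70687 and 48370 in Eif5 cKO, 35568 and 52646 in control). Without Clu the Sertoli sum was 30861 and 23838 in Eif5 cKO and 17499 and 21265 in control, which did not overlap. The next most abundant Sertoli gene was Aard (5255 ± 759 in Eif5 cKO and 4070 ± 361 in control; SD, n = 2 each). The 8 Leydig cell genes had a median of 0.71, with 0 called in limma, edgeR or DESeq2 and 6 with an unadjusted p under 0.05 in limma. They summed to 3182 and 2878 in Eif5 cKO and 1786 and 2164 in control, led by the steroidogenic enzymes Cyp17a1 (1071 ± 497 in Eif5 cKO and 642 ± 274 in control) and Hsd3b1 (496 ± 198 in Eif5 cKO and 442 ± 31.3 in control; SD, n = 2 each). The 8 tested macrophage genes had a median of 0.45, with 0 called in limma, edgeR or DESeq2 and 2 with an unadjusted p under 0.05 in limma. They summed to 1630 and 1715 in Eif5 cKO and 1122 and 1348 in control, led by the mannose receptor Mrc1 (774 ± 35.9 in Eif5 cKO and 546 ± 87.2 in control) and Csf1r (213 ± 39.7 in Eif5 cKO and 188 ± 41.5 in control; SD, n = 2 each). The 6 peritubular myoid genes, led by the contractile genes Acta2 (3445 ± 551 in Eif5 cKO and 3925 ± 246 in control) and Myh11 (1332 ± 195 in Eif5 cKO and 1531 ± 102 in control; SD, n = 2 each), had a median of -0.20, and 0 were called in limma, edgeR or DESeq2 or had an unadjusted p under 0.05 in limma. The myoid sum was 5897 and 4700 in Eif5 cKO and 5930 and 6177 in control. No gene of these 4 somatic lists had 0 reads in any library. The part of the somatic values in the lower values of the 4 genes was not tested. Libraries were also scaled on the summed Sertoli list, most of it Clu, which moved the median of all genes to -0.44. Lower values under this scaling therefore follow in part from the scaling itself. With it, Stra8, Gm4969 and Gm1564 passed at -1.98, -3.92 and -4.07, and Ythdc2, at -1.70, did not (limma adjusted p = 0.0971).

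Genes with the most similar pattern were sought by Euclidean distance between centred log2 values over the 4 libraries. Only genes of mean value at least 50 were searched, and symbols of the clone type were left out. Gm4969 and Gm1564 have such symbols and could therefore not be listed as neighbours of each other or of any gene. Nearest to Stra8 were Aplf (distance 0.158), a histone chaperone of DNA end joining, Stag3 (0.198) and Asf1b (0.208), a histone chaperone of proliferating cells. Nearest to Ythdc2 were Sycp3 (0.0750), Mief2 (0.182), of mitochondrial dynamics, and Zyg11a (0.224). Sycp3 had 244 and 369 in Eif5 cKO and 671 and 773 in control, which is 42.5% of the control mean, beside 42.0% for Ythdc2. Among the genes searched, Gm4969 and Gm1564 shared the nearest 3. These were Prss50, a testis serine protease (0.909 and 1.11), the testis histone gene Hist1h2aa (1.20 and 1.37) and Ugt8a, which makes galactolipids (1.3 and 1.51). Prss50 had 19.3 and 21.5 in Eif5 cKO and 268 and 244 in control, 7.98% of the control mean, near the 7.27% of Gm4969 and the 8.64% of Gm1564. With 4 libraries in 2 groups, such likeness mostly reflects the size of the difference between the groups.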

How the data were processed

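A commercial ribosome footprinting kit was used, per the labels' protocols. The submitters' processing notes list featureCounts, STAR, Bowtie2 and GRCm38 and give no versions. The sources used here do not state how strand or multi-mapping reads were handled. The deposited columns were named raw counts but held a normalized signal: division by the lowest non-zero value of a column gave whole reads for 100% of values (relative tolerance 1e-06), and the divisors equalled median-of-ratios size factors. Each deposited row held 10 reads or more in total.

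Because the signal was not a raw count, limma 3.58.1 (R 4.3.3) with an intensity trend was fitted to log2(value + 1) on group alone. Genes had to pass the filterByExpr filter of edgeR 4.0.16 (minimum count 10) on the recovered reads. It had 2 residual and 37.0 prior degrees of freedom. Tests were two-sided. The fits were tested on simulated reads. Alternatives were edgeR and DESeq2 1.42.0 on recovered reads, 4 scalings, pseudocounts of 0.5 and 4, 2 filters, each library left out and a replicate block. The members and lists were chosen with earlier results of these data known. Genes were named by rule: the called genes (at most 6) and the 2 with the smallest p in each pathway list, genes tied to the members, the 2 highest genes in each marker list, and the 3 nearest profiles among genes of mean value at least 50 with no clone name. Other genes (Six5, Spo11, Msh4, Meiob, Prdm9, Ythdc1, the Ythdf genes, Aldh1a1 and Aldh1a3) were chosen after their values were seen. Levels per coding length were planned but not computed, and proteins are not shown, since no coding lengths or proteins were used here. Gm4969 and Gm1564 were matched to Bhmg1 and Meioc by RefSeq synonyms.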

Additional observations from a re-analysis of the deposited data

How the results depend on the processing

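All 4 log2 fold changes were negative in every alternative run. The calls of Stra8, Gm4969 and Gm1564 passed in every alternative that kept all 4 libraries, except that Gm4969 was not tested with at least 50 reads required in 2 libraries. Ythdc2 missed the threshold in DESeq2 (-1.24), with Sertoli scaling (-1.70) and with scaling on spermatogonial markers (-1.14), where adjusted p was 0.0983, 0.0971 and 0.123, and passed in the other 8 that kept all 4 libraries. With 1 library left out, log2 fold changes ranged from -1.79 to -1.28 for Stra8, -4.12 to -2.97 for Gm4969, -4.51 to -2.81 for Gm1564 and -1.51 to -1.0 for Ythdc2, and 0 to 4 of the genes were called. In the same fits 9 to 244 genes were called lower and 1 to 102 higher over all genes, against 73 and 9 with all libraries. The lists had 0 to 16 early meiotic, 0 to 2 germ cell regulator, 0 to 1 mitotic, 0 to 1 retinoic acid and 0 to 1 partner genes called lower. Scaling on spermatogonial markers, which moved the median of all genes to 0.12, called 34 genes lower. Higher calls were 14 with library totals, 1 with Sertoli scaling and 14 with the replicate block. Germ cell regulators called lower were 2 with library totals, 2 with Sertoli scaling and 0 with spermatogonial scaling. Mitotic genes called lower were 0 in DESeq2, with Sertoli scaling and with spermatogonial scaling. The replicate numbers share only a number: deviations of same-numbered samples correlated at -0.05, and with the replicate block the 4 log2 fold changes were the same (-1.53, -3.54, -3.66 and -1.26) and all 4 genes were called. Where an arm was left with 1 library, that library was assumed to vary like the other group; the cause of lost calls was not tested. Depth limits Gm4969 and Gm1564, which had 2 to 23 reads in Eif5 cKO libraries.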
